A study of Mus musculus with 24 samples.

Results

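The collagen genes were taken as every gene of either expression table whose symbol has the form of a collagen chain name, Col with a type number, the letter a and a chain number. This gave 44 genes of the 17953 in either table. The table of neural progenitor cells (NPC) held 42 of them among 16024 genes, and the table of mouse embryonic stem cells (mESC) held all 44 among 17501. Col6a5 and Col13a1 were in the mESC table alone. No measured value entered the choice.

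The study sequenced RNA of mESC and of NPC derived from them, 12 libraries each, with 2 biological samples for each of 6 Htt genotypes. Htt encodes huntingtin, the protein altered in Huntington's disease. The genotypes were wild type (WT), a knockout of Htt (KO) and 4 knock-in lines, all heterozygous, Q20, Q50, Q92 and Q111, each named after the CAG repeat length of its allele. The growth protocol gives 89 repeats for the line titled Q92. Per the labels, mESC grew with serum and leukemia inhibitory factor on gelatin over a feeder layer of irradiated CF-1 mouse embryonic fibroblasts. NPC were made without a named feeder layer, first in N2B27 medium and then on laminin with FGF and EGF. The labels name 1 line per knock-in allele and do not give the origin of the WT and KO lines, so a genotype and its cell line cannot be told apart. The p-values measure only the spread between the libraries of each line.

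The values are normalised CPM, read counts scaled to library size by the authors. Recovered reads ran from 48525333 to 118038952 per NPC library and from 58546211 to 81502284 per mESC library. Testing needed 1 CPM or more in 2 or more of a cell type's 12 libraries. Of the collagen genes, 34 passed in NPC and 34 in mESC. The 8 left out in NPC (Col4a3, Col6a4, Col6a6, Col8a1, Col10a1, Col15a1, Col17a1 and Col24a1) stayed at or under 1.31 CPM in every library. The 10 left out in mESC (Col4a3, Col4a4, Col4a6, Col9a1, Col10a1, Col15a1, Col19a1, Col24a1, Col25a1 and Col28a1) stayed at or under 1.22 CPM. In NPC, Col25a1 reached 1 CPM in KO libraries alone, and Col1a1, Col1a2, Col8a2 and Col22a1 did so in Q20 and Q50 libraries alone, so these genes passed only through the lines where they were high. Col4a4 passed through WT and KO alone, and Col4a6 through the knock-in lines alone. In mESC, Col6a1, Col6a3 and Col8a1 reached 1 CPM in knock-in libraries alone, so they too passed only through the lines where they were high. Outside those lines, Col1a1 reached it only in the second KO library (1.21 CPM) and Col3a1 only in the first (2.72 CPM). That is under the 2 libraries needed, so both also needed knock-in libraries to pass. A gene was called when the Benjamini-Hochberg adjusted p of limma, a linear model across all genes, was under 0.05. Changes are differences of log2(CPM + 1), which understates the change of low genes.

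The NPC markers Fabp7 and Slc1a3 were at 778 CPM or more in every NPC library. Pou5f1, which marks pluripotent cells, was at 279.7 CPM or more in every mESC library. Pou5f1 was also at 90.1 and 87.4 CPM in both Q20 NPC libraries and at or under 0.41 CPM in the other 10. The 4 of 6 pluripotency markers in the NPC table summed to 106 and 107 CPM in Q20 and to between 4.72 and 26.5 CPM elsewhere. In NPC, Htt was at 137 and 177 CPM in WT and at 100.1 and 94.9 CPM in KO (log2 change -0.67, SE 0.14, limma adjusted p = 0.0673). In mESC, the pair of libraries labelled KO had 139 and 68.5 CPM of Htt and the WT libraries 124 and 113, so Htt was not lower in the first library labelled KO. Every mESC statement on KO rests on those labels.

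Collagens are secreted proteins made of chains wound into a triple helix. Fibrillar collagens form the fibrils of connective tissue, type IV collagens form the sheet of basement membranes, and the FACIT collagens sit on fibril surfaces. The beaded filament collagens of type VI link cells to the matrix around them, and the multiplexin Col18a1 belongs to basement membranes. In brain, collagens are found mainly in the basement membranes of vessels and in the meninges. Embryonic fibroblasts, such as those used as feeders, are strong producers of fibrillar collagens.

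Pairs of type IV genes lie head to head and are read outward from a shared region. Col4a1 (ENSMUSG00000031502, minus strand) spans 11198423 to 11312826 on chromosome 8 of GRCm38, and Col4a2 (ENSMUSG00000031503, plus strand) spans 11312805 to 11449287. Their first exons overlap by 22 bases. Col4a6 (ENSMUSG00000031273, minus strand) spans 141165403 to 141474076 on chromosome X, and Col4a5 (ENSMUSG00000031274, plus strand) spans 141475385 to 141689234, with 1309 bases between their start sites. The promoter windows of these 4 genes are shown because neighbours that share a start region can be compared in level. Col3a1 and Col1a2 are added as the fibrillar genes with the widest range of levels. Each window runs from 250 bases before to 50 after the start of a RefSeq gene model on GRCm38.p6, 5′ to 3′ on the gene's own strand. The windows are chr8:11312777-11313076 for Col4a1, chr8:11312555-11312854 for Col4a2, chrX:141475169-141475468 for Col4a5, chrX:141474027-141474326 for Col4a6, chr1:45311288-45311587 for Col3a1 and chr6:4505368-4505667 for Col1a2. Capitals mark CCAAT and TATAAA on either strand, so that ATTGG stands for a CCAAT on the other strand.
Col4a1: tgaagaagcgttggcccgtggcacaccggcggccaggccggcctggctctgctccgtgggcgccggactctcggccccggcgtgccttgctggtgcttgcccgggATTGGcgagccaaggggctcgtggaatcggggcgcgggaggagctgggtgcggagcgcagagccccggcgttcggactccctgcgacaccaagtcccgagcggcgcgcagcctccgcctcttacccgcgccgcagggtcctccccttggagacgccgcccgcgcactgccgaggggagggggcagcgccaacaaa
Col4a2: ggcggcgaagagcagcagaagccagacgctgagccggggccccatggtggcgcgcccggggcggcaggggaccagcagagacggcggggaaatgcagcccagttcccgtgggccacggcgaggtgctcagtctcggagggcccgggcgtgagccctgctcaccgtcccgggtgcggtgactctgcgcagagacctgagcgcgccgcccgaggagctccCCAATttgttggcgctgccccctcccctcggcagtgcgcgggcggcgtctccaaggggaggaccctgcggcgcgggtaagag
Col4a5: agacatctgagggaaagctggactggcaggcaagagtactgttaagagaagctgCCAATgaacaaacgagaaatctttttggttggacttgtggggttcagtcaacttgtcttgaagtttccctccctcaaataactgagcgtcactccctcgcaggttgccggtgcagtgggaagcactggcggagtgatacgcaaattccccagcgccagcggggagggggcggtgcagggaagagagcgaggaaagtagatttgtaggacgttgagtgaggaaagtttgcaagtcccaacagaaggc
Col4a6: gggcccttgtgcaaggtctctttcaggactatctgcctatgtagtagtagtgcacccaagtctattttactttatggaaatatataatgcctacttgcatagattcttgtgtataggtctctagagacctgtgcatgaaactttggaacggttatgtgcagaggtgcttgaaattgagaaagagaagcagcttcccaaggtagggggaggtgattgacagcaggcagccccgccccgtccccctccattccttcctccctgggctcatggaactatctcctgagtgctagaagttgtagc
Col3a1: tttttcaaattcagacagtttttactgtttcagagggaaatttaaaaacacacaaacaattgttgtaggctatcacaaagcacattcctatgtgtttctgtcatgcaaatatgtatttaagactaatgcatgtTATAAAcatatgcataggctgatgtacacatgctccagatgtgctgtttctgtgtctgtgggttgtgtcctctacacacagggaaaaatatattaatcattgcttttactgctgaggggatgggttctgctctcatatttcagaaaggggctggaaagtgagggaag
Col1a2: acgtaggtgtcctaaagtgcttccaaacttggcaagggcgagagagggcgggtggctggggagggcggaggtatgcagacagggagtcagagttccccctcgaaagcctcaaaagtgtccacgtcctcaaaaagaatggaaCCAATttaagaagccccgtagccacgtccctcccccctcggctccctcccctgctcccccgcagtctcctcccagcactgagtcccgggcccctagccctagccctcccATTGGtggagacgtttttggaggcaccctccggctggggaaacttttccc

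Windows were found for 35 of the 44 genes, 38 windows in all. Col1a1, Col2a1 and Col5a2 are among the others. CCAAT stood in 13 of the 38 windows (34.2%) and in 37.4% of all 32817 windows of the same length. TATAAA stood in 5 of the 38 (13.2%) and in 13.6% of all, and GGGCGG, searched on both strands too, in 23 of the 38 (60.5%) and in 35.6% of all. Windows of Col4a1 and Col4a2 overlap, and a gene with several starts has several windows.

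Collagen expression in NPC differed from line to line. The 11 fibrillar genes summed to 162 and 160 CPM in WT, 129 and 130 in KO, 467 and 415 in Q20, 1006 and 1023 in Q50, 121 and 128 in Q92 and 328 and 325 in Q111. The 6 basement membrane genes summed to 169 and 177 CPM in WT, 228 and 209 in KO, 433 and 387 in Q20, 600.04 and 740 in Q50, 84.9 and 95.1 in Q92 and 438 and 431 in Q111. Q50 libraries were highest and Q92 libraries lowest in both sums, apart from all others. In the fibrillar sum Q92 lay barely below KO, at 128.2 CPM in the higher Q92 library and 128.57 in the lower KO library. Col3a1 alone gave 608 and 630.0 CPM of the Q50 fibrillar sums. The 25 genes of other classes ranged less, from 178 CPM in a Q92 library to 407 in a Q20 library. These libraries come from bulk cultures, in which fewer cells of a type and less RNA per cell cannot be told apart.

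**Figure D1:**
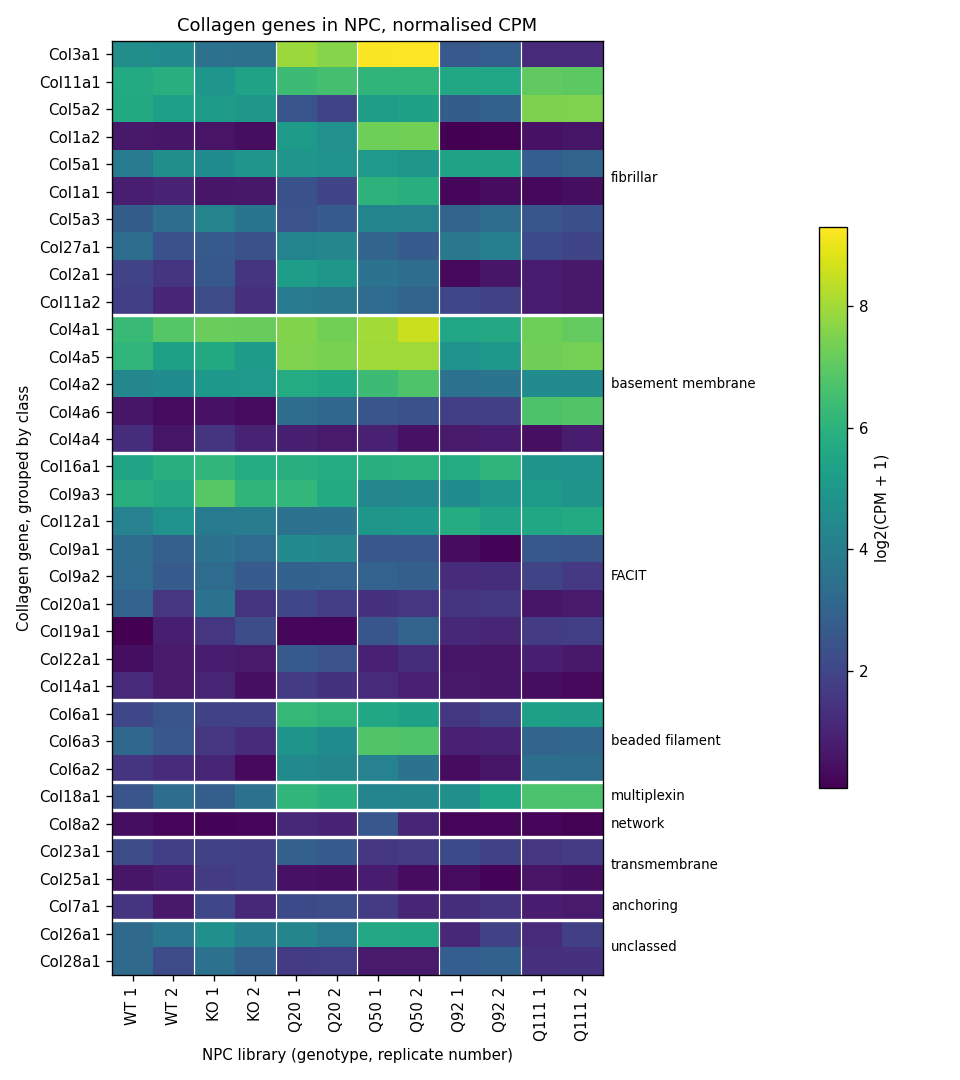
Levels of the 34 tested collagen genes in the 12 NPC libraries, as log2(CPM + 1); rows are genes grouped by class and columns are libraries. Values are not divided by gene length, so they compare libraries along a row; Col3a1 is brightest in Q50 and Col5a2 and Col4a6 are brightest in Q111.

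Of the 34 genes, 10 had their highest mean in Q20, with both Q20 libraries above the other 10 libraries in all of them. For 11 genes the highest mean was in Q50, with both libraries apart from the others in 9. Q111 was highest for 5 and apart in 4, and Q92 was highest and apart for Col5a1 alone. The lowest mean fell in Q92 for 12 genes and in Q111 for 12. WT had the highest mean for 1 gene and KO for 6. These counts were made for the collagen genes alone, with no share over all genes, so they only describe the 34.

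Among the fibrillar genes, Col1a1 and Col1a2, whose chains form type I collagen, were near absent outside Q20 and Q50. Col1a1 (chromosome 11, 94936224 to 94953042, plus strand) was at 0.806 and 0.945 CPM in WT, 0.562 and 0.600 in KO, 4.32 and 3.00 in Q20, 64.5 and 56.6 in Q50, 0.149 and 0.313 in Q92 and 0.203 and 0.326 in Q111. Col1a2 was at 0.631 and 0.552 CPM in WT, 0.483 and 0.318 in KO, 33.1 and 25.4 in Q20, 153 and 159 in Q50, 0.0495 and 0.0782 in Q92 and 0.433 and 0.496 in Q111. Both genes were far higher in the Q20 and Q50 libraries than in any other, with no overlap. Col1a2 rose by 4.24 in Q20 against WT (SE 0.17, adjusted p = 2.57e-06) and by a further 2.39 in Q50 against Q20 (SE 0.17, adjusted p = 4.17e-05). Col1a1 rose by 3.73 in Q50 against Q20 (SE 0.18). Col1a2 fell by 4.82 in Q92 and by 4.36 in Q111, each against Q20.

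Col3a1, the chain of type III collagen found with type I in soft connective tissue, spanned the widest absolute range. Its levels were 24.0 and 21.8 CPM in WT, 10.6 and 10.1 in KO, 239.8 and 194 in Q20, 608 and 630.0 in Q50, 5.27 and 6.10 in Q92 and 1.31 and 1.28 in Q111. The genotypes did not overlap. The change was 3.18 in Q20 against WT (SE 0.16), 1.52 in Q50 against Q20 (SE 0.16), -5.02 in Q92 against Q20 (SE 0.16) and -6.56 in Q111 against Q20 (SE 0.16), all called. Col3a1 also fell in KO against WT, by 1.07 (SE 0.16, adjusted p = 0.0242). Exons of Col3a1 overlap the gene Gm47302 on the same strand, and the effect of this on its counts was not tested.

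Col5a2, a type V chain that is built into type I fibrils, lies 24614 bases from Col3a1 on chromosome 1 (45374321 to 45503282, minus strand) and was ordered differently. It was at 50.1 and 38.0 CPM in WT, 33.2 and 30.0 in KO, 4.47 and 2.87 in Q20, 35.8 and 40.1 in Q50, 5.88 and 6.61 in Q92 and 179 and 181 in Q111. Q111 libraries were highest and Q20 libraries lowest, both apart from all others, where Col3a1 was lowest in Q111. Col5a2 fell by 3.28 in Q20 against WT (SE 0.21, adjusted p = 2.49e-05). Against Q20 it rose by 3.08 in Q50 (SE 0.21) and by 5.30 in Q111 (SE 0.21). Its change in Q92 against Q20 was 0.65 (SE 0.21, adjusted p = 0.0546), which did not pass.

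**Figure D2:**
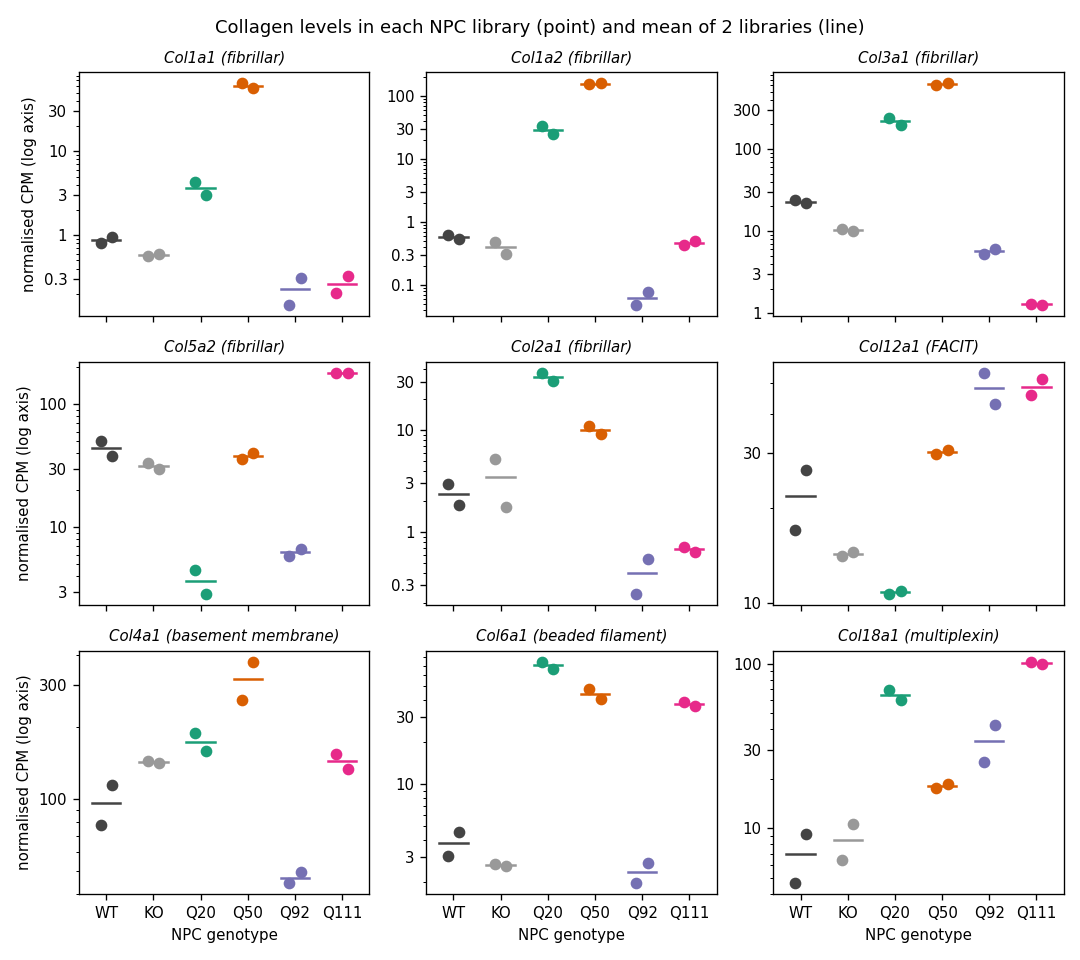
Normalised CPM on a log axis of 9 collagen genes in NPC by genotype; points are the 2 libraries of a genotype and the line is their mean. Col1a1, Col1a2 and Col3a1 peak in Q50, Col2a1 and Col6a1 in Q20, and Col5a2 and Col18a1 in Q111, while Col12a1 is lowest in Q20.

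Col2a1, the main collagen of cartilage, was highest in Q20. It was at 2.94 and 1.83 CPM in WT, 5.18 and 1.78 in KO, 36.6 and 30.2 in Q20, 10.9 and 9.23 in Q50, 0.248 and 0.547 in Q92 and 0.718 and 0.638 in Q111. WT and KO overlapped, and Q20 stood above all others. Col2a1 rose by 3.36 in Q20 against WT (SE 0.35) and fell by 1.63 in Q50, 4.62 in Q92 and 4.35 in Q111 against Q20 (SE 0.35 each), all called. Col11a2, a type XI chain that occurs with Col2a1 in cartilage fibrils, was at 13.9 and 12.2 CPM in Q20 and 0.731 and 0.638 in Q111, a fall of 3.06 (SE 0.33). Of the cartilage markers, Sox9 ran from 36.7 to 76.8 CPM over all 12 libraries and Acan from 0.368 to 2.93, and Comp was under 1 CPM throughout. Matn1 was at 3.50 and 2.40 CPM in Q20 and at or under 0.118 elsewhere. The part of such cells in the Col2a1 level was not tested.

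Other fibrillar genes were present in every line. Col11a1 was at 51.4 and 57.4 CPM in WT, 29.1 and 40.4 in KO, 83.5 and 95.3 in Q20, 67.8 and 68.6 in Q50, 46.2 and 45.8 in Q92 and 131 and 126 in Q111. Its rise of 0.52 in Q111 against Q20 (SE 0.17, adjusted p = 0.0478) lay at the edge of the threshold and did not pass in edgeR (adjusted p = 0.0605) or after quantile normalization (adjusted p = 0.182). Col5a1, the partner chain of Col5a2, was at 14.2 and 23.9 CPM in WT, 22.8 and 29.2 in KO, 28.7 and 26.3 in Q20, 31.4 and 30.0 in Q50, 40.5 and 41.1 in Q92 and 6.02 and 7.27 in Q111. So the type V chains were ordered oppositely in Q111, where Col5a2 was highest and Col5a1 lowest. Exons of Col5a1 overlap 2 genes of the opposite strand, and the use of strand in the counting is not given in the sources used here. Col5a3 was at 17.8 and 17.2 CPM in Q50 and 4.40 and 5.67 in Q20, and Col27a1 at 17.6 and 19.5 CPM in Q20 and 3.47 and 2.99 in Q111, both called.

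Of the basement membrane genes, Col4a1 and Col4a2, whose chains form the common type IV network, moved together. Col4a1 was at 77.6 and 114 CPM in WT, 144 and 142 in KO, 188 and 159 in Q20, 258 and 373 in Q50, 44.4 and 49.3 in Q92 and 153 and 134 in Q111. Col4a2 was at 19.1 and 22.8 CPM in WT, 31.0 and 31.6 in KO, 52.8 and 46.4 in Q20, 84.4 and 106 in Q50, 10.6 and 11.4 in Q92 and 21.7 and 22.0 in Q111. Q50 was highest and Q92 lowest for both, apart from all other libraries. Col4a1 rose by 0.87 in Q20 against WT (SE 0.23) and by 0.84 in Q50 against Q20 (SE 0.23), and fell by 1.86 in Q92 against Q20 (SE 0.23). Col4a2 rose by 1.20, rose by 0.92 and fell by 2.07 in the same comparisons (SE 0.17 each). In Q111 against Q20, Col4a2 fell by 1.14 (SE 0.17), while Col4a1 changed by -0.27 (SE 0.23, adjusted p = 0.393). The Col4a1 level per kilobase of exon was 5.38 to 6.26 times that of Col4a2 in the Q111 libraries and 2.71 to 4.44 times in the other 10 NPC libraries.

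Col4a5 and Col4a6, chains of specialised basement membranes, differed in order in Q111. Col4a5 was at 69.8 and 39.3 CPM in WT, 49.5 and 33.9 in KO, 182 and 172 in Q20, 251 and 255 in Q50, 26.7 and 31.0 in Q92 and 158 and 166 in Q111. Col4a6 was at 0.543 and 0.258 CPM in WT, 0.434 and 0.265 in KO, 9.33 and 8.23 in Q20, 4.74 and 4.24 in Q50, 2.41 and 2.53 in Q92 and 105 and 109 in Q111. Q50 was highest for Col4a5, whereas Col4a6 in Q111 stood far above every other library, the next highest being 9.33 CPM. Col4a6 rose by 3.47 in Q111 against Q20 (SE 0.17, adjusted p = 7.3e-06), while Col4a5 changed by -0.13 (SE 0.26, adjusted p = 0.736). Both rose in Q20 against WT, Col4a5 by 1.74 (SE 0.26) and Col4a6 by 2.81 (SE 0.17), and both fell in Q92 against Q20, by 2.58 and 1.49. Col4a4 stayed between 0.352 and 1.75 CPM, and its neighbour Col4a3 was not tested.

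**Figure D3:**
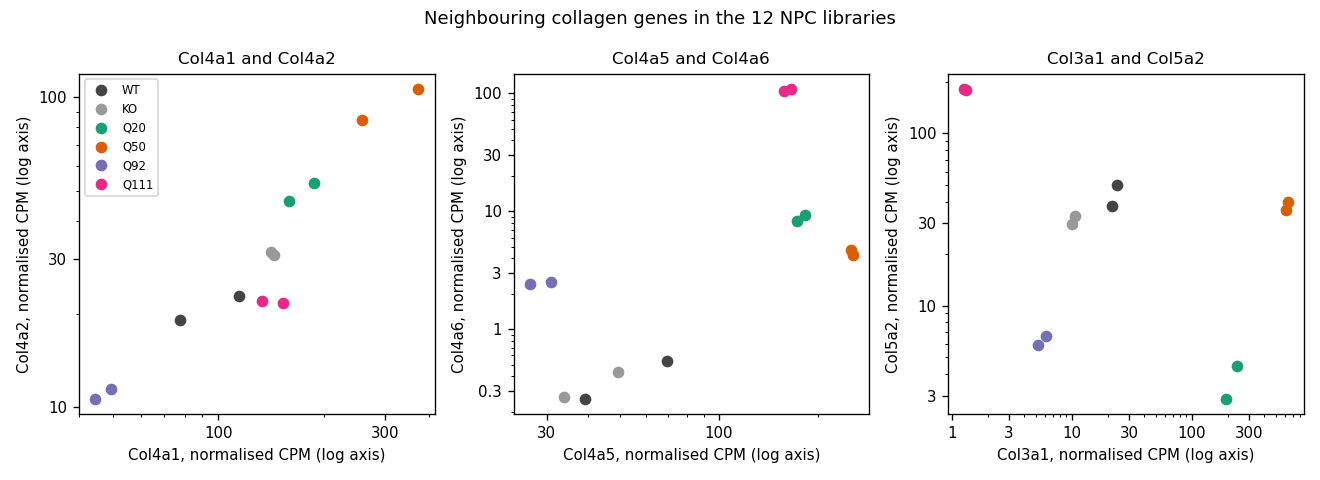
Normalised CPM, both axes logarithmic, of neighbouring collagen genes in the 12 NPC libraries, coloured by genotype. Col4a1 and Col4a2 lie near one line, Col4a6 in Q111 (105 and 109 CPM) lies above all other libraries at a Col4a5 level below that of Q50, and Col3a1 and Col5a2 sit at opposite extremes in Q111.

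The beaded filament genes Col6a1, Col6a2 and Col6a3, whose chains assemble into type VI collagen, had 2 patterns. Col6a1 was at 3.05 and 4.59 CPM in WT, 2.68 and 2.59 in KO, 74.2 and 66.1 in Q20, 47.6 and 40.3 in Q50, 1.96 and 2.75 in Q92 and 38.7 and 36.0 in Q111. Col6a2 was likewise highest in Q20, at 20.6 and 18.3 CPM. Col6a3 was at 7.92 and 5.03 CPM in WT, 1.86 and 1.39 in KO, 27.7 and 22.4 in Q20, 109 and 106 in Q50, 0.892 and 1.00 in Q92 and 7.50 and 7.75 in Q111. Thus Col6a3 peaked in Q50 and was low in Q111, where Col6a1 was not. In Q20 against WT, Col6a1 rose by 3.90, Col6a2 by 3.02 and Col6a3 by 1.82, and in Q92 against Q20 they fell by 4.41, 3.86 and 3.74 (SE 0.22 to 0.28). Col6a3 fell by 1.49 in KO against WT (SE 0.23, adjusted p = 0.0247).

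Of the 9 FACIT genes tested, 5 fell in Q92 against Q20 (15.9% of all 13206 tested genes did) and 6 in Q111 against Q20 (16.1% of all genes), while Col12a1 rose in both and Col19a1 in Q111. Col22a1, which fell in both, passed the filter through Q20 and Q50 alone. Col12a1 was at 17.1 and 26.5 CPM in WT, 14.1 and 14.5 in KO, 10.7 and 10.9 in Q20, 29.7 and 30.6 in Q50, 53.9 and 42.8 in Q92 and 45.9 and 51.5 in Q111. Against Q20 it rose by 1.40 in Q50, 2.06 in Q92 and 2.07 in Q111 (SE 0.22 each), and it fell by 0.92 in Q20 against WT. The type IX gene Col9a1, whose product lies on cartilage fibrils, was at 21.8 and 19.5 CPM in Q20, 4.95 and 4.89 in Q50, 0.314 and 0.109 in Q92 and 5.08 and 4.85 in Q111, and it was called lower in all 3 lines. Col9a2 was lower in Q92 and Q111 at 1.39 to 2.87 CPM, against 5.55 to 8.83 in the other 8 libraries. Col19a1 rose in Q50 against Q20 by 2.55 (SE 0.30), from 0.137 and 0.182 to 4.78 and 6.95 CPM. Col9a3 fell by 1.61 in Q50 against Q20 (SE 0.28), but its exons overlap Tcfl5 on the opposite strand.

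Col18a1, which yields endostatin, was lowest in WT and highest in Q111. It was at 4.62 and 9.24 CPM in WT, 6.37 and 10.5 in KO, 69.4 and 59.7 in Q20, 17.6 and 18.6 in Q50, 25.3 and 42.1 in Q92 and 102 and 100.04 in Q111. WT and KO overlapped and lay below every knock-in library. Of the low genes, Col8a2 was at 4.89 CPM in 1 Q50 library and at 1.06 in the other, and it was not called in any NPC comparison. Col25a1, a neuronal transmembrane collagen that passed the filter through KO alone, rose by 1.03 in KO against WT (SE 0.16). It was at 2.20 and 2.55 CPM against 0.561 and 0.749. Col26a1 was at 49.3 and 47.4 CPM in Q50 and between 1.19 and 2.72 in Q92 and Q111, and it was called higher in Q50 and lower in Q92 and Q111, each against Q20.

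The counts followed these profiles. In Q20 against WT, 18 of the 34 genes rose (52.9%), where 9.97% of all 13206 tested genes rose, and 2 fell, Col5a2 and Col12a1 (5.88%, against 4.57% of all genes). Of the 18, Col1a1, Col1a2 and Col22a1 passed the filter through Q20 and Q50 alone, and Col4a6 through the knock-in lines alone. The median change was 0.83 over the 34 tested genes and -0.02 over all genes tested. Of the 10 fibrillar genes 7 rose and 1 fell, of the 5 basement membrane genes 4 rose, and of the 19 others 7 rose and 1 fell. The count rests on the spread pooled over all 6 genotypes: with the WT and Q20 libraries alone 9 were called, 8 up and 1 down.

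In Q50 against Q20, 11 of the 34 rose (32.4%, background 8.05%) and 8 fell (23.5%, background 10.7%). The median was -0.06, and -0.00197 over all genes. Fibrillar genes rose in 5 cases and fell in 2, basement membrane genes rose in 2 and fell in 1, and other genes rose in 4 and fell in 5. The largest rises were those of Col1a1, Col5a2, Col19a1 and Col1a2, and the largest falls those of Col9a1, Col18a1, Col2a1 and Col9a3. Of these, Col1a1 and Col1a2 passed the filter through Q20 and Q50 alone.

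In Q92 against Q20, 20 genes fell (58.8%, background 15.9%) and 2 rose (5.88%, background 9.88%), Col12a1 and Col28a1. Col1a1, Col1a2, Col8a2 and Col22a1 passed the filter through Q20 and Q50 alone, which favoured a fall. Col1a2 and Col22a1 are among the 20. The median was -1.09 over the collagen genes and 0.06 over all genes. Of the 10 fibrillar genes 6 fell, and of the 5 basement membrane genes 4 fell. After quantile normalization the split was 18 down and 5 up. Col28a1 rose by 1.15, from 2.29 and 2.38 CPM to 6.08 and 6.72 (SE 0.33, adjusted p = 0.0357), and was not called by edgeR (adjusted p = 0.0519) or without any 1 of the 4 libraries.

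In Q111 against Q20, 20 genes fell (58.8%, background 16.1%) and 5 rose (14.7%, background 12.2%): Col5a2, Col4a6, Col12a1, Col19a1 and Col11a1. Here too Col1a2 and Col22a1, which passed the filter through Q20 and Q50 alone, are among the 20. The median was -1.06 over the collagen genes and 0.03 over all genes. Fibrillar genes fell in 7 cases and rose in 2, while of the 5 basement membrane genes 1 rose and 1 fell. Without the first Q20 library 16 genes were called, 3 up and 13 down.

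**Figure D4:**
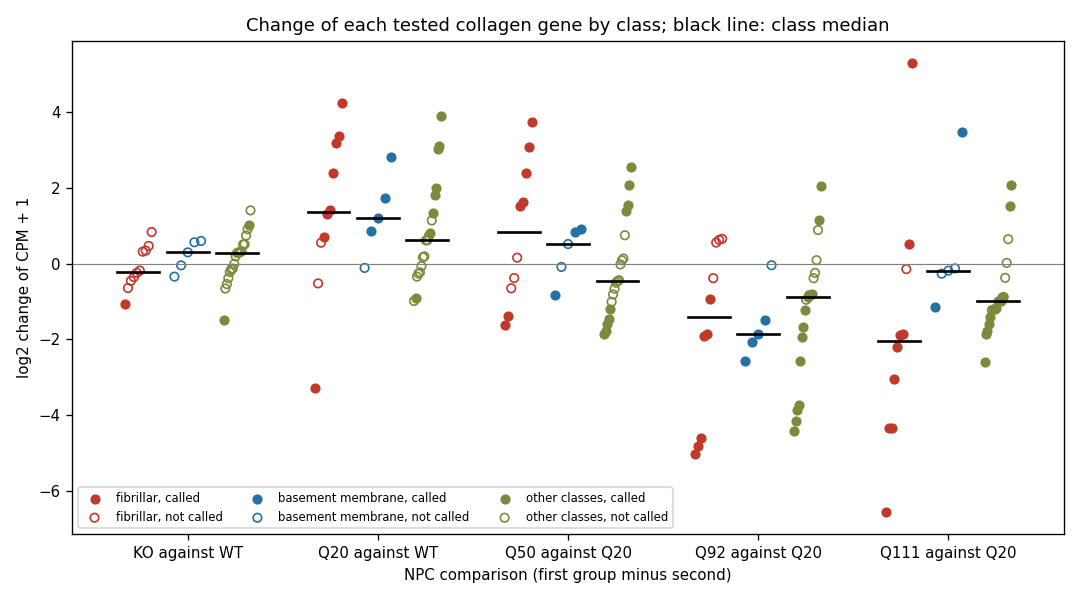
Log2 change of CPM + 1 of each of the 34 tested collagen genes in 5 NPC comparisons; filled points passed an adjusted p under 0.05, open points did not, and black lines are class medians. Fibrillar and basement membrane medians lie above 0 in Q20 against WT and below 0 in Q92 and Q111 against Q20.

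These 3 comparisons share the Q20 libraries, which alone had high Pou5f1, so each line was also set against WT. In Q50 against WT, 14 genes rose (background 4.54%) and 2 fell (background 2.08%). In Q92 against WT, 4 rose (background 3.42%) and 8 fell (background 5.25%). In Q111 against WT, 9 rose (background 8.74%) and 6 fell (background 7.9%). Against WT, Q50 was higher in Col1a2 (6.62), Col1a1 (5.04), Col3a1 (4.70) and Col6a3 (3.89). Col1a1 and Col1a2 passed the filter through Q20 and Q50 alone. Col4a6, called higher than WT in all 3 lines, passed through the knock-in lines alone. Of the 19 genes called in Q50 against Q20, 6 had the other sign against WT, as had 3 of 22 in Q92 and 5 of 25 in Q111. Among those of Q50, Col2a1 was 1.72 higher in Q50 than in WT (adjusted p = 0.0254), Col18a1 1.33 higher (adjusted p = 0.0618) and Col5a2 -0.20 (adjusted p = 0.697). Col4a6, which fell against Q20 in both Q50 and Q92, was higher than WT by 1.98 in Q50 and by 1.32 in Q92 (adjusted p = 0.00387). Col6a1 and Col6a2 fell in Q111 against Q20 and were 3.01 and 2.04 higher than WT, both called. The 4 rises in Q92 against WT were Col18a1 (2.15), Col4a6, Col12a1 (1.14) and Col5a1 (1.10), and the largest of the 8 falls were Col9a1 (-2.84), Col5a2 (-2.63) and Col6a3 (-1.91), followed by Col3a1 (-1.84). In Q111 against WT the largest rises were Col4a6 (6.27), Col18a1 (3.75) and Col6a1, and the largest falls Col3a1 (-3.38), Col26a1 (-1.99) and Col28a1 (-1.37).

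In KO against WT, 1 gene rose, Col25a1 (2.94%, background 0.878%), and 2 fell, Col3a1 and Col6a3 (5.88%, background 0.545%). Col25a1 passed the filter through KO alone, which favoured a rise. The median was 0.23, and 0.03 over all genes. No collagen gene was called without WT replicate 1, without KO replicate 1 or with the 4 libraries of both groups alone, and 7 were called without WT replicate 2 and 1 without KO replicate 2.

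Markers of mesenchymal cells, which make fibrillar collagens, varied with the lines. The mesenchymal and perivascular list, with 10 of 10 genes in the table, summed to 68.4 to 74.5 CPM in WT, 36.8 to 61.0 in KO, 50.3 to 50.9 in Q20, 122 to 154 in Q50, 15.2 to 22.9 in Q92 and 40.1 to 58.1 in Q111. Its genes Twist2, Foxc2 and Rgs5 were under 1 CPM in every library, and Rgs5 was listed at 0 in WT and KO. Of its 7 genes tested, Lum and Pdgfrb rose and Tbx18 fell in Q20 against WT, and the sum was lower in Q20 than in WT. Tbx18 was at 0.982 and 0.804 CPM in Q20 and at 9.07 or more in WT and KO (log2 change -3.20, adjusted p = 0.00186). In Q50 against Q20, 4 rose and 0 fell, in Q92 4 fell and in Q111 3 fell. Of 13 tested genes of the fibroblast list described for mESC, 4 rose (Lum, Pdgfrb, Postn and Thbs2) and 2 fell (Fbn1 and Tbx15) in Q20 against WT. Against Q20, 8 rose and 1 fell in Q50. In Q92, 2 rose (Fbn1 and Tbx15) and 7 fell, and in Q111, 2 rose (Fbn1 and Thbs2) and 5 fell. The 18 genes of the list summed to 176 to 239 CPM in WT, 256 to 387 in KO and 129 to 143 in Q20. The sums were 350 to 355 in Q50, 213 to 214 in Q92 and 188 to 194 in Q111, so Q20 was lowest. Pdgfrb was at 11.8 and 10.9 CPM in Q20 and 18.6 and 18.0 in Q50, and at or under 1.09 elsewhere. Lum was at 4.86 and 3.52 CPM in Q20 and 10.9 and 15.2 in Q50, and at or under 1.16 elsewhere. The fibroblast marker Postn was at 10.7 and 8.23 CPM in Q20, 29.3 and 29.5 in Q50 and at or under 2.61 elsewhere. The endothelial markers Pecam1 and Cdh5 were at or under 0.708 CPM in all 12 libraries. The 5 astrocyte markers did not share 1 order over the lines. Gfap was at 43.1 and 27.8 CPM in Q20, 72.9 and 35.3 in Q50 and at or under 4.30 elsewhere, whereas Aldh1l1 was at 235 and 215 CPM in Q20, 23.7 and 30.4 in Q50 and 137 and 131 in Q111. In Q20 against WT both rose, and Aqp4, S100b and Gja1 did not pass. The part of these cell types in the collagen levels was not tested.

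Over the 8 knock-in NPC libraries, the slope on CAG length, given as the log2 change per 91 repeats, was called for 11 of 34 genes. Col12a1 rose by 2.01 (SE 0.31, adjusted p = 0.00417; 1 gene, 2.94%, background 12.0%). The falls numbered 10 (29.4%, background 10.1%), among them Col2a1 (-4.79, SE 0.46), Col11a2 (-2.94, SE 0.29), Col3a1 (-7.70, SE 1.34) and Col9a2 (-1.61, SE 0.39). Of the 10, Col11a2, Col14a1 and Col7a1 had line means that fell at each step of length, while Col3a1 and Col1a2 rose from Q20 to Q50 before they fell. Col1a2 passed the filter through Q20 and Q50 alone. Without any 1 of the Q20 or Q111 libraries 5 to 7 genes were called, with the fewest without the first Q20 library. With 1 mean value per line no collagen gene was called, and for the 5 genes named the adjusted p was then 0.295 to 0.363. When the whole Q20 line was left out, 3 of these 5 kept their call and 2 lost it. Other differences between the 4 lines cannot be told apart from repeat length.

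Genes that act on collagens were called in both directions. Of 35 genes for modification, processing and crosslinking, 31 were tested in NPC. In Q20 against WT 2 rose (6.45%, background 9.97%) and 3 fell (9.68%, background 4.57%). In Q50 against Q20 4 rose (12.9%, background 8.05%) and 2 fell (6.45%, background 10.7%). The counts were 7 up (22.6%, background 9.88%) and 6 down (19.4%, background 15.9%) in Q92 against Q20, and 7 up (22.6%, background 12.2%) and 7 down (22.6%, background 16.1%) in Q111 against Q20. Several of these shares lie near the background. In KO against WT none was called. P4ha2, a subunit of the enzyme that hydroxylates collagen prolines, rose by 1.79 in Q20 against WT and fell by 1.28 in Q50 against Q20 (SE 0.20 each). Adamts14, a procollagen N-propeptidase, was at a mean of 1.23 CPM in Q20 and 18.7 in Q50, 24.2 in Q92 and 22.4 in Q111, rises of 3.13 to 3.50 (SE 0.64). P3h2, a prolyl 3-hydroxylase, rose by 2.58 in Q92 against Q20 (SE 0.47), and Adamts2, another N-propeptidase, fell by 2.02 in Q111 against Q20 (SE 0.28).

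Of the 9 receptor genes 8 were tested in NPC. Counts of rises and falls were 1 and 0 in KO and in Q20, each against WT, and 1 and 1 in Q50, 1 and 2 in Q92 and 1 and 1 in Q111, each against Q20. With 8 genes a single call is 12.5%, where 0.878% of all genes rose in KO and 9.97% in Q20 against WT, and 8.05% to 12.2% rose and 10.7% to 16.1% fell in the comparisons with Q20. The integrin Itga2, a subunit of a receptor for fibrillar collagen, was called higher in Q20 than in WT and fell by 2.01 in Q50, 2.37 in Q92 and 2.41 in Q111 against Q20 (SE 0.24 each). Its partner Itgb1 rose in the same 3 lines against Q20, by 0.96, 0.58 and 1.03, and by 0.74 in KO against WT (SE 0.13 each). Adgrg1, a receptor for type III collagen in the developing brain, fell by 0.79 in Q92 against Q20 (SE 0.22, adjusted p = 0.0294).

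In mESC the most abundant collagen genes belonged to basement membranes. Per kilobase of exon, the highest mean levels were 45.5 to 65.3 CPM for Col18a1 and 14.9 to 42.3 CPM for Col4a1 across the 6 genotypes. Col18a1 was at 434 and 437 CPM in WT, 434 and 483 in KO, 327 and 409.5 in Q20, 435 and 473 in Q50, 462 and 447 in Q92 and 287 and 352 in Q111. Col4a1 was at 246 and 197 CPM in WT, 227 and 233 in KO, 139.9 and 136 in Q20, 348 and 284 in Q50, 118 and 105 in Q92 and 278 and 181 in Q111. The Q20 and Q92 libraries lay below all others and the Q50 libraries above all others for Col4a1. Markers of primitive endoderm, a cell type that makes type IV collagen and laminin, also varied between lines. Their sum was lowest in Q20 and Q92, as Col4a1 was, but highest in WT rather than in Q50. All 7 of the list were in the mESC table, and they summed to 284 to 303 CPM in WT, 147 to 190.5 in KO, 85.4 to 124 in Q20, 255 to 279 in Q50, 72.9 to 115 in Q92 and 191 to 204 in Q111. Their part in the Col4a1 levels was not tested.

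In mESC, 4 of the 10 tested fibrillar genes, Col1a1, Col1a2, Col5a1 and Col5a2, were higher in every knock-in library than in every WT and KO library. Col1a2 was at 0.808 and 1.95 CPM in WT, 0.920 and 2.60 in KO, 25.1 and 31.4 in Q20, 17.5 and 19.2 in Q50, 26.4 and 29.3 in Q92 and 21.2 and 29.3 in Q111. Col1a1 was at 0.494 and 0.850 CPM in WT, 0.947 and 1.21 in KO, 8.76 and 14.2 in Q20, 9.73 and 12.8 in Q50, 9.77 and 17.6 in Q92 and 7.59 and 11.4 in Q111. Col5a2 was at 2.87 and 3.26 CPM in WT, 1.61 and 3.10 in KO, 34.5 and 39.4 in Q20, 16.4 and 24.0 in Q50, 20.2 and 34.6 in Q92 and 29.0 and 33.3 in Q111.

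Col3a1, by contrast, was at 0 and 0.142 CPM in WT, 2.72 and 0.491 in KO and 2.32 to 13.6 in the knock-in libraries, and the groups overlapped. In all, 9 of the 34 tested genes were higher in all 8 knock-in libraries than in all 4 others, where 2.07% of the 13916 tested genes were, and none was lower throughout (background 1.34%). The 9 were Col1a1, Col1a2, Col5a1, Col5a2, Col6a1, Col6a3, Col8a1, Col12a1 and Col16a1. Since Col1a1, Col6a1, Col6a3 and Col8a1 needed knock-in libraries to pass the filter, the count of 9 is a description. This split into knock-in and other libraries was made after seeing the data, and the 4 lines come from 1 allelic series.

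**Figure D5:**
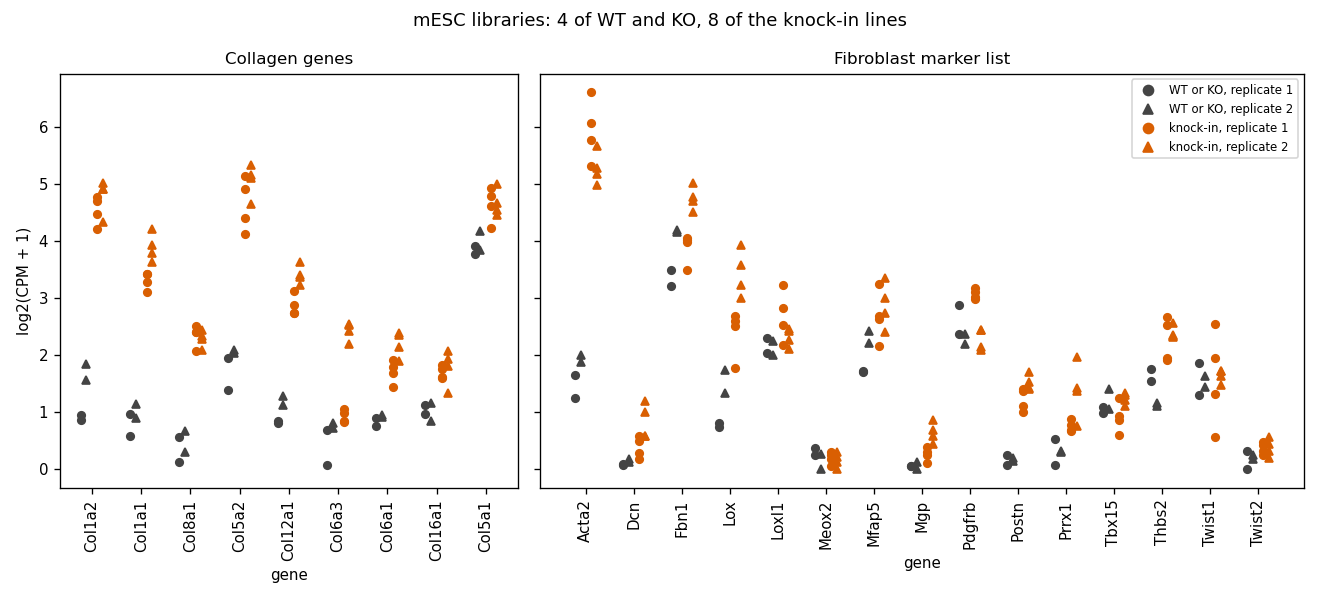
Levels, as log2(CPM + 1), of the 9 collagen genes that separate knock-in from WT and KO mESC libraries (left) and of the 15 listed fibroblast markers in the table (right); each symbol is a library, circles replicate 1 and triangles replicate 2. Knock-in libraries lie above the others for the 9 collagen genes and for Acta2, Lox and Postn, and overlap with them for Fbn1, Twist1 and Pdgfrb.

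In Q20 against WT mESC, 5 genes rose (14.7%, background 0.259%) and 0 fell (background 0.0647%). Col1a2 rose by 3.66 (SE 0.38, adjusted p = 0.0155), Col5a2 by 3.22 (SE 0.35, adjusted p = 0.0166), Col1a1 by 2.87 (SE 0.37, adjusted p = 0.0323), Col8a1 by 1.91 (SE 0.25, adjusted p = 0.0336) and Col12a1 by 2.42 (SE 0.37, adjusted p = 0.0446). Of these 5, Col1a1 and Col8a1 (0.478 and 0.230 CPM in WT) needed knock-in libraries to pass the filter. The count rested on all libraries: leaving out any 1 of the 4 libraries, or fitting these 4 alone, left 0 called genes by limma, against 17 at an unadjusted p under 0.05 with all libraries (12.3% of all genes), and edgeR called 2. In edgeR, Col1a2 had an adjusted p of 0.0541 and Col12a1 of 0.0614. In NPC, by contrast, both Col5a2 and Col12a1 fell in the same comparison. Against WT, limma called 4 genes higher in Q92 (background 0.0719%) and 4 in Q111 (background 0.266%), in each case Col1a1, Col1a2, Col5a2 and Col8a1. Here too Col1a1 and Col8a1 needed knock-in libraries to pass the filter. In Q50 against WT limma called 0 (background 0.0144%), with 10 at an unadjusted p under 0.05 (986 of all 13916 tested genes). The fits of Q50, Q92 and Q111 against WT did not pair the libraries by replicate number.

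The mESC libraries also differed by replicate number. In all 6 genotypes the first principal component, with 31.0% of the variance, separated number 1 from number 2. With the number as a term, 8 collagen genes were higher in number 2 (23.5%, background 20.5%) and 11 lower (32.4%, background 22.8%), shares near those of all genes. After quantile normalization 10 were higher and 7 lower. Col6a5 was at 5.44 to 11.5 CPM in the libraries of number 1 and at 16.1 to 34.9 in those of number 2, a change of 1.85 (SE 0.15, adjusted p = 0.000169). Col1a1, Col1a2, Col5a2 and Col12a1 were higher in number 2 in all 6 genotypes, by 0.41 to 0.49. In a paired fit with the replicate number as a block, 14 genes were called in Q20 against WT, 10 up (background 5.91% in that fit) and 4 down (background 4.69%): the 5 above, Col3a1, Col5a1, Col6a1, Col6a2 and Col16a1 up, and Col4a1, Col4a2, Col13a1 and Col20a1 down.

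Without the replicate block, limma called no collagen gene in the other mESC comparisons. In KO against WT, 0 of 34 had an unadjusted p under 0.05 (3.97% of all genes had) and edgeR called 0. limma called 0.0144% of all genes. For Q50 against Q20, 5 had an unadjusted p under 0.05 (6.37% of all genes) and edgeR called 0, where limma called 0.00719% of all genes. The replicate block called Col4a1 and Col4a2, higher by 1.18 and 1.11 (SE 0.16 each, background 0.611% higher). In Q92 against Q20, 1 had an unadjusted p under 0.05 (5.37% of all genes) and edgeR called 0 (limma called 0.00719% of all genes). For Q111 against Q20, 3 had an unadjusted p under 0.05 (2.69% of all genes) and edgeR called 0 (limma called 0.0% of all genes). For the slope on CAG length, 2 had an unadjusted p under 0.05 (2.57% of all genes) and edgeR called 0 (limma called 0.0% of all genes).

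The listed genes around the collagens were read in the same mESC comparisons. None of the 32 tested genes of collagen synthesis and processing was called by limma or by edgeR in KO or Q20 against WT, in the other lines against Q20 or on the slope. At an unadjusted p under 0.05 there were 7 of them in Q20 against WT (12.3% of all genes) and 0 to 2 in each other comparison (2.57% to 6.37% of all genes). Of the 9 receptor genes, limma and edgeR likewise called 0. At an unadjusted p under 0.05 there were 5 in Q20 against WT, beside the same 12.3% of all genes, and 0 or 1 in each other comparison. Between the replicate numbers, 10 synthesis genes were higher in number 2 (31.2%, background 20.5%) and 6 lower (18.8%, background 22.8%), and 3 receptors were higher (33.3%) and 2 lower (22.2%).

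Because the mESC grew on fibroblasts, a list of 18 fibroblast genes was read beside the collagens, of which 15 were in the mESC table. The list summed to 81.8 to 144 CPM in the knock-in libraries and to 26.5 to 38.7 CPM in WT and KO, ranges that did not overlap. Acta2, smooth muscle actin, made most of the gap: 96.5 and 49.5 CPM in Q20, 38.9 and 30.6 in Q50, 53.5 and 35.2 in Q92 and 65.9 and 37.7 in Q111, against 1.37 to 3.03 in WT and KO. Without Acta2 the sums were 42.8 to 68.5 and 24.4 to 35.7 CPM, still apart. Of the 15 genes, 6 were higher in all 8 knock-in libraries than in all 4 others, where 2.07% of the 13916 tested genes were. These were Acta2, Dcn, Lox, Postn, Prrx1 and Thbs2. Of the 7 neural progenitor markers in the mESC table, Nes was also apart, at 41.5 to 158 CPM in knock-in libraries and 8.42 to 26.04 in WT and KO, and the other 6 overlapped.

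Postn, a secreted fibroblast protein, was at 0.991 to 2.26 CPM in knock-in libraries and at or under 0.192 in WT and KO. Lox, a collagen crosslinking enzyme, was at 2.43 to 14.2 CPM and at 0.659 to 2.32 in the others. Dcn was at 0.125 to 1.28 CPM and at 0.0494 to 0.124, and Twist2, Mgp and Meox2 were under 1 CPM throughout. Dcn and Lox were thus apart only by narrow margins. Dcn and Postn were under 1 CPM in WT and KO, so they passed the filter through knock-in libraries alone. Pdgfrb overlapped, at 3.24 to 8.05 CPM in knock-in libraries and 3.58 to 6.38 in the others. Acta2 was lower in number 2 in all 4 knock-in lines, whereas Col1a1, Col1a2, Col5a2 and Col12a1 were higher. Over all genotypes the change of Acta2 between the numbers did not pass (-0.28, limma adjusted p = 0.357). Of the 12 tested genes of the list, 3 were called higher in number 2 (Dcn, Fbn1 and Lox) and 1 lower (Pdgfrb). Of all genes, 20.5% were higher and 22.8% lower. In Q20 against WT, Acta2 rose by 4.31 (SE 0.43, adjusted p = 0.0144), while Lox (2.27, adjusted p = 0.178) and Postn (1.15, adjusted p = 0.1005) did not pass. A correlation of collagen genes with the list was not computed, since the knock-in and the other libraries form separate clusters in both. The part of feeder fibroblasts in the collagen levels was not tested.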

How the data were processed

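RNA was extracted with TRIzol, treated with DNase I and sequenced as paired 75-base reads on an Illumina NextSeq 500, per the labels' protocols. The submitters' processing notes name CASAVA 1.8, STAR and the build GRCm38.p6. The counter, the annotation and the use of strand are not given in the sources used here. The authors deposited 1 table per cell type whose values they call CPM: a normalised signal that is not a raw count, since the totals of the columns differ. All values (100%) were whole multiples of what 1 read is worth, so reads could be recovered. Repeated entries of a gene, 1 in NPC and 4 in mESC, were left out.

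Values were tested as log2(CPM + 1) with limma 3.58.1 in R 4.3.3, two-sided and with a mean-dependent prior, on all genes with 1 CPM or more in at least 2 libraries. The 12 libraries of a cell type shared 1 estimate of spread, and p-values were adjusted by Benjamini-Hochberg over all genes tested. The slope on CAG length used the 8 knock-in libraries. The script was tested on simulated data. Alternatives were edgeR 4.0.16 (quasi-likelihood, recovered reads), other pseudocounts, filters and scalings, the replicate number as a block, single libraries left out, and WT as the reference. Positions and exon lengths come from GENCODE M21.

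The collagen genes and all lists were chosen with earlier results of these data known. Named with a test were, by rule, called genes whose groups do not overlap and whose higher mean reaches 5 CPM, up to 4 rises and 4 falls, and, with their levels, 13 genes set by name. Of the synthesis and receptor lists the 2 largest called changes were named. The other genes named were chosen after their values were seen.

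In mESC, samples of the same replicate number deviated together in all 15 pairs of genotypes (r = 0.25 to 0.547), so the number pairs the samples there. In NPC this held in 3 of 15 pairs (r = -0.0495 to 0.467).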

Additional observations from a re-analysis of the deposited data

Results flagged for a closer look

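Col5a2 and Col12a1 went opposite ways in the same comparison of Q20 with WT in the 2 cell types. Col5a2 changed by -3.28 on the log2 scale in NPC and by 3.22 in mESC, and Col12a1 by -0.92 in NPC and by 2.42 in mESC. In each cell type, both libraries of Q20 lay on one side of both libraries of WT. The difference between the cell types was not tested, since the tables were normalised separately. The mESC calls ended when any 1 of the 4 libraries was left out, and the NPC call of Col12a1 ended with the 4 libraries of both groups alone (adjusted p = 0.254 in limma).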

How the results depend on the processing

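Fitting only the libraries of both groups left 0 called collagen genes in NPC KO against WT, 9 in NPC Q20 against WT and 0 in mESC Q20 against WT. With WT in place of Q20 as the reference, 12 genes were called for Q92 and 15 for Q111 in NPC, and 4 for Q92 and 4 for Q111 in mESC. With that reference, 6 of 19 called genes had the other sign in NPC Q50, 3 of 22 in Q92 and 5 of 25 in Q111; of the changes named by rule, Col5a2 in Q50 turned to -0.20, Col18a1 to 1.33 and Col2a1 to 1.72. For the NPC slope on CAG length, 6 genes were called with a mean CPM of at least 5, 7 after quantile normalization and 0 with 1 mean value per line. In mESC Q20 against WT, 3 were called with a mean CPM of at least 5, 2 by edgeR and 14 in the paired fit with the replicate block. The replicate block gave 2 in mESC Q50 against Q20. In the comparison of replicate numbers, 11 were called with a mean CPM of at least 5. Leaving out single libraries gave 0 to 7 calls in NPC KO against WT, 16 to 20 in NPC Q111 against Q20, 5 to 11 for the NPC slope and 0 in mESC Q20 against WT. The cause of these changes was not tested. Of the 40 named values, 182 refits without 1 library ended the call in 42 cases and turned the direction in 0. The replicate block ended no call among 39 named values, edgeR ended 5 and quantile normalization 3. The planned correlations of collagen genes with the fibroblast list, and their 2 alternatives, were not run, because the knock-in and other libraries form separate clusters of fewer than 6 within a replicate number. With 2 libraries a group, the number of libraries limits which changes pass the threshold.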
